A study of Mus musculus with 2 samples.

Results

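The 9 genes described here encode the receptors, co-receptors and transcriptional effectors of hedgehog signalling: Ptch1, Smo, Gli1, Gli2, Gli3, Sufu, Boc, Cdon and Gas1. They were taken by gene symbol from 43346 Ensembl genes in the deposited tables, and all 9 were found. The data are 2 total RNA sequencing libraries of midbrain from B6NCrl mouse embryos at 14.5 days, each from a single pup, with the pups collected on different days. The labels name no engineered allele and no treatment, and replicates 1 and 2 of this single group are called embryo 1 and embryo 2 below, although the labels give both the same donor identifier. The design therefore implies levels in this tissue and their spread between both embryos, with no contrast to test.

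In the hedgehog pathway the receptor Ptch1 holds the membrane protein Smo inactive until a ligand such as Shh binds Ptch1. The co-receptors Boc, Cdon and Gas1 help the ligand bind. Active Smo frees the zinc finger factors Gli2 and Gli3 from Sufu, so that Gli2 acts mainly as an activator, whereas Gli3 without signal is cut to a repressor. Ptch1 and Gli1 are themselves induced by the signal, while Gas1, Boc and Cdon are lowered by it in the neural tube. In the midbrain Shh is made in the floor plate and the ventral midline, and it patterns the ventral part of the tissue.

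The depth over genes was 31687015 counts for embryo 1 and 29182364 counts for embryo 2, while ERCC spike-in RNAs took 3.15% and 3.32% of all counts. The counts are the estimated reads per gene that the authors deposited, so they need not be whole. The midbrain factors Otx2 (99.9 and 76.3 TPM) and En1 (13.5 and 14.3 TPM) were present in both. TPM is a level corrected for transcript length and for the library's total. The labels describe each sample as pooled in sex, although each came from 1 pup: Xist had 3 counts in embryo 1 and 62.0 TPM in embryo 2, and the Y-linked Eif2s3y had 73.0 TPM and 0 counts. By these genes embryo 1 was male and embryo 2 female, so ratios between the embryos also set a male against a female. The libraries also differed in markers of other cell types. All 12 mesenchyme and meninges markers were higher in embryo 1, where they summed to 424 TPM against 12.4 in embryo 2, with Col3a1 (187 and 2.81 TPM) and Col1a2 (71.2 and 1.90 TPM) the highest, and none was at 0 in either library. Summed levels in embryo 1 and embryo 2 were 437 and 251 TPM for 10 cell cycle markers, 106 and 38.1 for 7 microglia and macrophage markers, 130 and 83.7 for 6 endothelial markers, 154 and 64.1 for 5 pericyte markers, 204 and 82.4 for 5 choroid plexus markers, and 9889 and 6451 for 7 erythroid markers. The 2 highest of each list were Pcna and Cdk1, C1qb and Lyz2, Cldn5 and Kdr, Vtn and Rgs5, Otx2 and Ttr, and Hba-a2 and Hbb-bs. Otx2 is also a gene of the midbrain itself. Vtn alone had 109 and 31.6 TPM, and 2 of the 5 pericyte markers passed 1.5-fold. Ttr alone had 96.3 and 0.37 TPM, and 1 of the 3 choroid plexus markers with at least 100 summed counts passed 1.5-fold. Oligodendrocyte precursor markers summed to 50.7 and 57.6 TPM, with 4 of 5 higher in embryo 2 by scaled counts. Neural progenitor markers summed to 2039 and 2125 TPM and immature neuron markers to 4812 and 5179 TPM. The progenitor sum rested mainly on Fabp7 (1214 and 1511 TPM). By scaled counts 6 of the 9 progenitor markers were higher in embryo 1 and 3 in embryo 2, and none passed 1.5-fold. Of the 8 immature neuron markers 2 were higher in embryo 1 and 6 in embryo 2. Of all genes with at least 100 summed counts, 49.4% were higher in embryo 1. In whole tissue, fewer cells of a type and less RNA per cell cannot be told apart.

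Promoter stretches are shown for the receptor Ptch1 and the co-receptor Gas1, because their RNA differed least and most between the embryos by scaled counts among the 8 genes with at least 100 counts. Each is the 250 bases before the RefSeq transcription start, 5′ to 3′ on the minus strand of GRCm38.p6, with GC boxes (GGGCGG on either strand) and CCAAT boxes (CCAAT on either strand) in capitals. The Ptch1 stretch is chr13:63565736-63565985 and the Gas1 stretch is chr13:60177536-60177785.
Ptch1: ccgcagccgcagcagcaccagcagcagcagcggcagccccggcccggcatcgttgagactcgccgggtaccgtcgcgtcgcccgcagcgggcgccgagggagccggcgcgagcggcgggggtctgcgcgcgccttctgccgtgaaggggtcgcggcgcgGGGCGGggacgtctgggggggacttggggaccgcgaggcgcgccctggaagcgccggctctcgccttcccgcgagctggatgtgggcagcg
Gas1: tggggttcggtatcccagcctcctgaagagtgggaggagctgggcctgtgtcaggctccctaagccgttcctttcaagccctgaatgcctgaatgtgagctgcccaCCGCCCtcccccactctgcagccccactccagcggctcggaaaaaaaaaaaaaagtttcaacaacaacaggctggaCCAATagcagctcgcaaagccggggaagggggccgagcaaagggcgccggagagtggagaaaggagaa
The Ptch1 stretch had a GC content of 78.4% with 1 GC box, and the Gas1 stretch one of 58.8% with 1 GC box and 1 CCAAT box, against a median of 52.4% over 32851 reference stretches. RefSeq windows, which add 50 bases after the start, were found for 7 of the 9 genes. Gli1 and Boc had no window and were not searched. The Gli binding motif GACCACCCA, searched on both strands, was in none of these 7 windows and in 0.253% of all windows. GGGCGG was in the windows of Ptch1, Gli2, Gli3, Sufu and Gas1 and in 35.7% of all, and CCAAT in those of Sufu, Cdon and Gas1 and in 37.4% of all. A missing motif says only that these letters are not in the window.

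All genes except Gli1 reached 1 TPM in both embryos, and all were modest in level. The median of the 9 mean levels was 9.00 TPM, against 17.3 for the 14565 genes at 1 TPM or more in both libraries. Sufu, the cytoplasmic inhibitor of Gli proteins, was the highest, and its mean lay above 53.5% of those genes. The order by mean level was Sufu, Gas1, Boc, Ptch1, Smo, Gli3, Cdon, Gli2 and Gli1. Of the 8 neighbouring pairs in this order, 4 had overlapping values (Sufu with Gas1, Gas1 with Boc, Boc with Ptch1, Smo with Gli3) and 4 had not, and 5 pairs kept their order within each embryo. Ptch1 and Smo counted as apart only by 11.16 against 11.09 TPM in embryo 1.

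**Figure D1:**
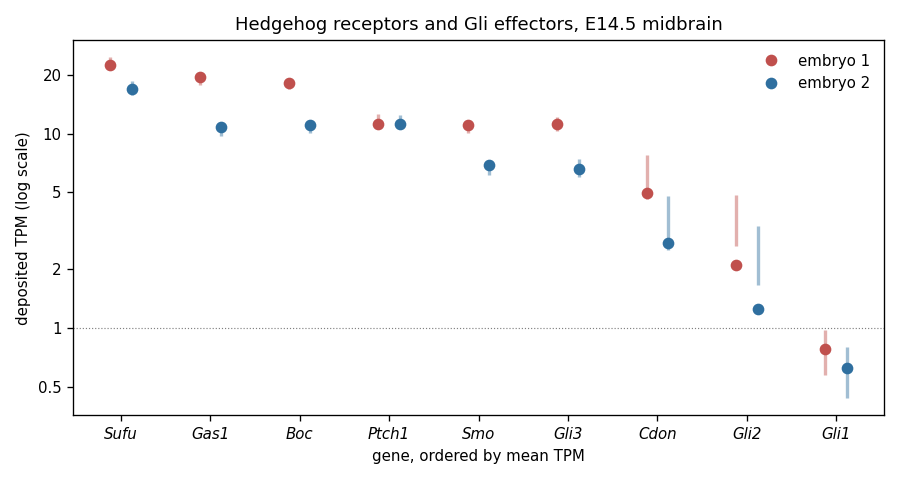
Deposited TPM (log axis) of the 9 genes in embryo 1 and embryo 2, ordered by mean; bars are the authors' deposited intervals and the dotted line is 1 TPM. Ptch1 is at 11.16 and 11.18 TPM, while the other 8 genes are higher in embryo 1, with overlapping bars for Gli1, Gli2 and Cdon.

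Of the receptors, Ptch1 (chromosome 13, 63508328 to 63573598, minus strand, GRCm38) stood at 11.16 TPM in embryo 1 and 11.18 in embryo 2, from 1488 and 1463 counts. The values were almost equal, with a mean of 11.17 ± 0.0141 TPM (SD, n = 2, as for all values written so). The signal transducer Smo (chromosome 6, 29735503 to 29761365, plus strand) stood at 11.09 TPM in embryo 1 and 6.91 in embryo 2, from 782 and 486 counts, a mean of 9.00 ± 2.96 TPM. Ptch1 and Smo were thus at the same level in embryo 1, and Smo was the lower of the pair in embryo 2.

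Among the co-receptors, the membrane-anchored Gas1 (chromosome 13, 60174405 to 60177365, minus strand) was the highest at 19.5 TPM in embryo 1 and 10.8 in embryo 2, from 1068 and 592 counts, a mean of 15.2 ± 6.12 TPM. Boc (chromosome 16, 44485049 to 44558897, minus strand), an immunoglobulin and fibronectin repeat protein, stood at 18.3 and 11.1 TPM, from 1518 and 918 counts, a mean of 14.7 ± 5.10 TPM. Its paralogue Cdon (chromosome 9, 35421128 to 35507652, plus strand) stood at 4.97 and 2.73 TPM, from 447 and 260 counts, a mean of 3.85 ± 1.58 TPM. All 3 co-receptors were higher in embryo 1, and Boc was above Cdon in each embryo, by 3.68 times in embryo 1 and 4.06 times in embryo 2 on the TPM scale. The SDs of Gas1 and Boc exceeded the 0.455 TPM between their means, and their order was turned in embryo 2.

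Of the effectors, Sufu (chromosome 19, 46396896 to 46488804, plus strand) stood at 22.6 TPM in embryo 1 and 16.9 in embryo 2, from 1691 and 1249 counts, a mean of 19.7 ± 3.98 TPM. Gli3 (chromosome 13, 15463235 to 15730026, plus strand), the main repressor, stood at 11.3 and 6.60 TPM, from 1372 and 838 counts, a mean of 8.93 ± 3.30 TPM. The main activator Gli2 (chromosome 1, 118834132 to 119053619, minus strand) stood at 2.12 and 1.25 TPM, from 265 and 153 counts, a mean of 1.69 ± 0.615 TPM. Gli1 (chromosome 10, 127329882 to 127341974, minus strand), the activator that the signal induces, stood at 0.78 and 0.62 TPM, from 53 and 42 counts, a mean of 0.70 ± 0.113 TPM. Gli3 was thus the most abundant Gli transcript in both libraries, Gli2 second and Gli1 last, and the values of these 3 genes did not overlap.

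The authors deposited an interval for each TPM, whose level is not stated. The deposited level lay inside its interval in both embryos for 8 of the 9 genes. Gli2 was the exception, with intervals of 2.63 to 4.84 and 1.67 to 3.34 TPM above its levels of 2.12 and 1.25. Posterior mean levels of Gli2, also deposited, were 3.66 and 2.45 TPM, of which 1.72 and 1.18 TPM went to transcripts with 0 expected counts. Between the embryos the intervals of Smo, Gli3, Sufu, Boc and Gas1 were apart, and those of Ptch1, Gli1, Gli2 and Cdon overlapped.

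Transcripts of the 9 genes were described next from the transcript tables. Smo, Gli1 and Gas1 had 1 transcript each, and the other 6 genes had the same leading transcript in both embryos. The leading Ptch1 transcript was Ptch1-202, a protein-coding form with a first base at 63564535, which took 84.2% of Ptch1 TPM in embryo 1 and 88.2% in embryo 2. Ptch1-201, which starts at 63565735 beside the promoter stretch printed above, took 3.14% and 3.31%. The remaining larger share went to Ptch1-204, annotated for nonsense-mediated decay, at 1.29 TPM in embryo 1 and 0.66 in embryo 2. Most of the Ptch1 level was thus assigned to a transcript that begins downstream of the RefSeq start. The level of Ptch1-202 alone was 9.40 TPM in embryo 1 and 9.86 in embryo 2.

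Gli3 had its full-length transcript Gli3-201 (8170 nt) in the lead with 70.9% and 75.3% of its TPM, followed by the shorter protein-coding Gli3-202 (2004 nt) with 19.5% and 15.9%. Gli2 was carried by Gli2-201 (6637 nt) with 100% and 97.6%. For Sufu the leading form Sufu-201 took 80.7% and 79.6%, and Sufu-202 took 14.4% and 13.9%. Boc rested on a transcript named ENSMUST00000023370.6 with 96.1% and 91.7%, while Boc-201 took 3.88% and 8.30%. The former (4428 nt) is absent from the GENCODE M21 annotation used here for names, and Boc-201 is of similar length (4452 nt). Cdon was the most divided: Cdon-202 (7464 nt) took 51.2% and 52.6%, and Cdon-206 (2222 nt) took 42.1% and 27.9%. Shares of short transcripts rest on few reads, such as 84.9 and 31.1 expected counts for Cdon-206. By counts, which are not corrected for length, the leading share was 80.2% and 77.6% for Cdon.

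**Figure D2:**
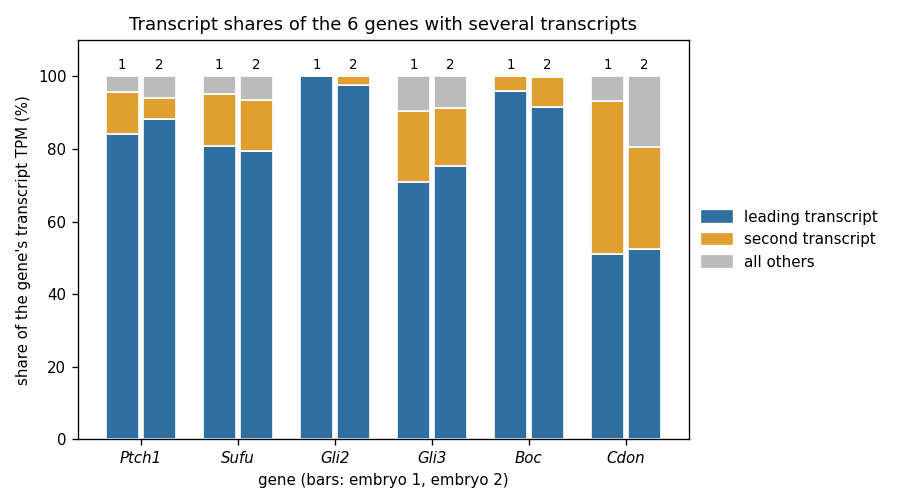
Share (%) of each gene's transcript TPM taken by the leading transcript, the second transcript and all others, for the 6 genes with several transcripts, with 1 bar per embryo. The leading share is over 70% in both embryos for 5 genes and near 52% for Cdon.

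Counts were then scaled to set the embryos side by side. A ratio between the embryos compares 2 libraries and carries no test. The 95% interval given with each ratio covers counting error only, since reads are not independent molecules and each embryo has 1 library. Gas1 was 1.63-fold higher in embryo 1 (1.47 to 1.80), Gli2 1.56-fold (1.28 to 1.92) and Cdon 1.55-fold (1.33 to 1.82). Boc followed at 1.49-fold (1.37 to 1.62), Gli3 at 1.48-fold (1.36 to 1.61) and Smo at 1.45-fold (1.30 to 1.63). These 6 genes lay close together, and their intervals overlap. Sufu was 1.22-fold higher in embryo 1 (1.14 to 1.32). Gli1 was at 1.14-fold with an interval of 0.745 to 1.75, so that no direction was detectable at its 95 summed counts. Ptch1 alone was higher in embryo 2, by 1.09-fold (1.01 to 1.17) with this scaling, while its deposited TPM was almost equal.

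A fixed ratio of 1.5-fold was used to count genes among those with at least 100 summed counts, which 8 of the 9 members reached. Past it, 3 members (Gas1, Gli2 and Cdon) were higher in embryo 1, against 8.56% of the 14011 genes tested, and 0 members were higher in embryo 2, against 5.65%. No member passed 2-fold, against 3.35% of genes higher in embryo 1 and 1.43% higher in embryo 2. The threshold fell inside the group of 6, since Boc, Gli3 and Smo lay just under it. The deposited intervals of Gli2 and Cdon overlapped between the embryos, whereas those of Gas1, Boc, Gli3 and Smo were apart. With spike-in scaling or deposited TPM in place of scaled counts, 6 members passed 1.5-fold, against 11.8% and 13.3% of all genes. In these settings the median log2 ratio of all genes, embryo 2 over embryo 1, moved from 0.01 to -0.11 and -0.13. By scaled counts the median log2 ratio was -0.56 over the 9 members. Among genes of 2500 to 9000 nt, the length span of the members, the median was -0.10 and 10.9% were past 1.5-fold in embryo 1, and among genes of 0.5 to 25 TPM these values were -0.04 and 13.2%. The part in these ratios of the mesenchyme markers and of other markers higher in embryo 1 was not tested. Sex and collection day each differ between the embryos, so their parts cannot be told apart from other differences between the embryos.

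**Figure D3:**
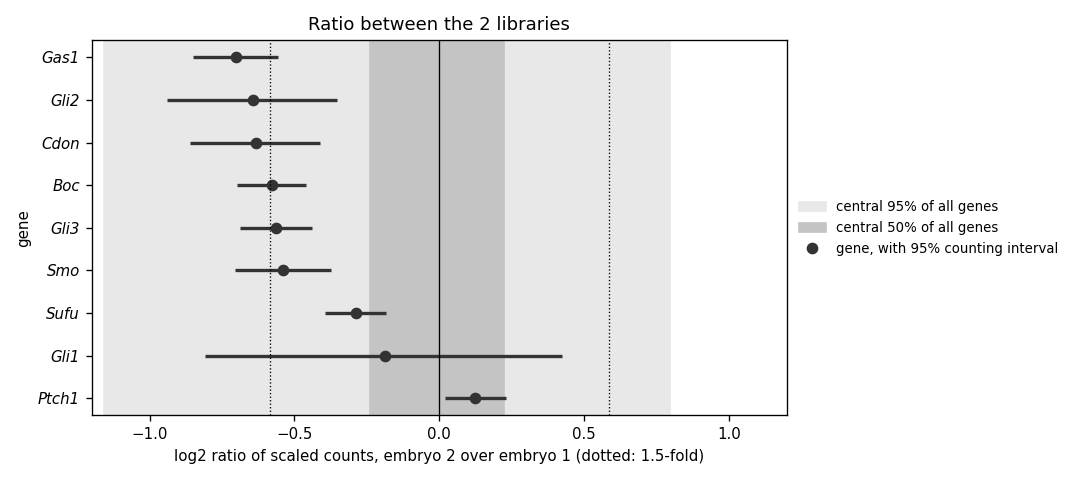
Log2 ratio of scaled counts, embryo 2 over embryo 1, for the 9 genes with 95% counting intervals, over the central 50% and 95% of 14011 genes. Gas1, Gli2, Cdon, Boc, Gli3 and Smo lie between -0.70 and -0.54. These genes and Sufu (-0.29) lie left of the central 50%, and Ptch1 lies at 0.12.

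**Figure D4:**
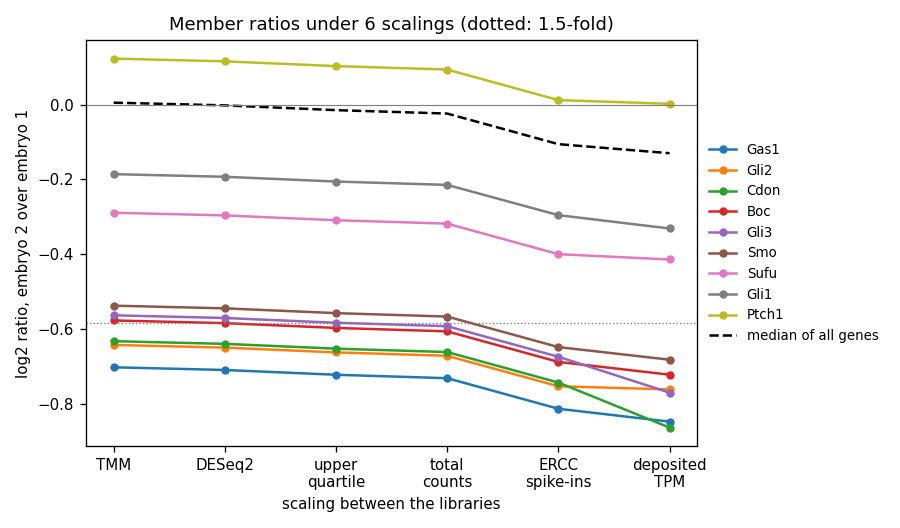
Log2 ratio, embryo 2 over embryo 1, of each gene under 6 ways of scaling the libraries, with the median of all genes dashed and 1.5-fold dotted. Gas1 is the lowest except with deposited TPM, where Cdon is, Ptch1 is the highest throughout (0.12 to 0.00), and 3 genes pass 1.5-fold at the left and 6 at the right.

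Ratios of 2 members within 1 library need no scaling between libraries. Relative to Ptch1, Smo stood at 0.994 in embryo 1 and 0.618 in embryo 2 on the TPM scale, Gli3 at 1.01 and 0.590, Gas1 at 1.75 and 0.968, and Boc at 1.64 and 0.992. Each of these genes was thus lower against Ptch1 in embryo 2. Other pairs were alike in both embryos: Gli2 stood at 0.188 and 0.189 of Gli3, and Gli3 at 1.02 and 0.955 of Smo. Gli1 stood at 0.0693 of Gli3 in embryo 1 and 0.0939 in embryo 2, on few counts.

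Other genes of the pathway were described from 5 lists with 52 genes in all, of which 48 had at least 100 summed counts. Of these 48, 4 were past 1.5-fold in embryo 1 (Gpc3, Ccnd1, Ccnd2 and Cdk6) and 3 in embryo 2 (Arrb2 and Foxa2 among them), close to the 8.56% and 5.65% of all genes tested, and the median log2 ratio of the 52 was 0.05, against 0.01 for all genes tested. Ligands were scarce. Shh had 23.5 expected counts in embryo 1 and 75.4 in embryo 2 (0.47 and 1.52 TPM), 3.50-fold higher in embryo 2 (2.24 to 6.04), below the minimum of 100 counts. Dhh, the desert hedgehog ligand, had 22 and 10 counts, and Ihh, the Indian hedgehog ligand and lowest of its list, had 6 and 2. Disp2, a member of the family of ligand release proteins, was the highest of the 9 ligand and release genes at 39.5 ± 1.30 TPM, and 6 of the 9 reached 1 TPM in both embryos.

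Hhip, a decoy receptor that the signal induces, stood at 1.47 and 2.15 TPM and was 1.33-fold higher in embryo 2 (1.04 to 1.72). It had 117 counts in embryo 1 and 142 in embryo 2. The glypican Gpc3 binds hedgehog ligands. It stood at 47.0 TPM in embryo 1 and 10.3 in embryo 2, 4.14-fold higher in embryo 1 (3.72 to 4.62). By TMM-scaled counts Gpc3 was the only gene past 2-fold among the 48 with at least 100 summed counts. Ccnd2 lay just under that ratio at 1.997-fold, and its deposited TPM, 113 and 51.0, was past 2-fold. Mgrn1, a ubiquitin ligase that lowers Smo at the cell surface, was the highest of the 7 other receptors and antagonists at 84.4 ± 0.997 TPM, and Hhip was the lowest. All 7 reached 1 TPM.

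All 22 regulators of Smo and Gli proteins reached 1 TPM, with a median of 19.7 TPM. They ran from Kif7, the ciliary kinesin that controls Gli proteins, at 1.89 and 1.4 TPM, to Prkar1a, a regulatory subunit of protein kinase A, at 468 and 385 TPM. Arrb2, a beta-arrestin, was the only one past 1.5-fold, at 45.7 and 72.4 TPM, 1.68-fold higher in embryo 2 (1.56 to 1.81). The median log2 ratio of the 22 was -0.08.

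The list of ventral midbrain genes patterned by the signal had 10 of 10 genes higher in embryo 2 by TMM-scaled counts, but 9 with upper quartile or total counts, 7 with spike-in scaling and 6 with deposited TPM. Of all genes tested, 50.6% were higher in embryo 2 by TMM-scaled counts, 48.3% and 47.4% with upper quartile and total counts, 37.5% with spike-in scaling and 34.7% with deposited TPM. Past 1.5-fold in embryo 2 were 2 of the 9 with at least 100 counts, against 5.65% of all genes, among them the floor plate factor Foxa2 at 4.11 and 6.35 TPM (1.65-fold, 1.35 to 2.04). With spike-in scaling or deposited TPM, 1 of the list was past it, against 3.55% and 3.28% of all genes. The list ran from Nkx2-9, with 3 counts in each embryo, to Nkx6-2 at 7.13 and 6.17 TPM. Of the 4 cell cycle genes that the signal is known to induce, 3 were past 1.5-fold in embryo 1, against 8.56% of all genes. The other gene, Mycn, stood at 50.9 and 48.3 TPM. By scaled counts Mycn was 1.04-fold higher in embryo 2, with an interval over both directions (0.98 to 1.10). Ccnd2, the highest at 113 and 51.0 TPM, was 1.997-fold higher in embryo 1 (1.94 to 2.06) and Ccnd1 1.58-fold (1.49 to 1.68). Cdk6, the lowest at 8.67 and 4.98 TPM, was 1.58-fold higher in embryo 1 (1.38 to 1.80). Of the general cell cycle markers, 10 of 10 were also higher in embryo 1, and their part in this result was not tested.

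**Figure D5:**
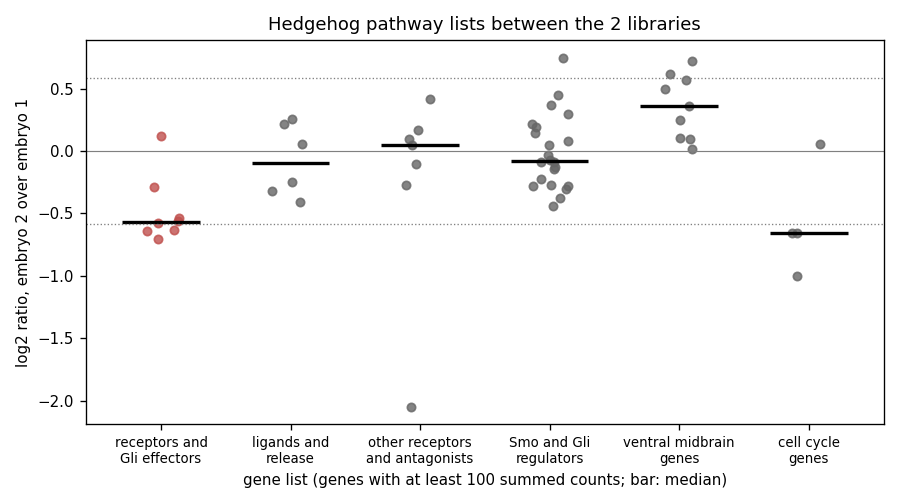
Log2 ratio, embryo 2 over embryo 1, of each gene with at least 100 summed counts, for the receptors and Gli effectors and 5 further hedgehog lists, with the median as a bar and 1.5-fold dotted. Of the receptor and effector genes 6 lie between -0.70 and -0.54, the regulators have a median of -0.08, and the lowest point, at -2.05, is Gpc3.

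Exons of 3 members overlap another gene on the opposite strand in the annotation. Whether the libraries kept strand is not stated in the labels or headers. Gli1 overlaps Arhgap9, with 29 and 4 counts, against 53 and 42 counts for Gli1 itself. Gli3 overlaps Gm6556, with 29.1 and 17.4 counts, against 1372 and 838 for Gli3. Gas1 overlaps Gm48488, which was not listed in the tables. Whether reads of these overlaps were assigned by strand was not tested.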

How the data were processed

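The authors' deposited tables hold, per the file headers, expected counts (estimated reads, which need not be whole), TPM and FPKM for each gene and transcript, in 1 file per library. Per the deposited text record, reads were aligned to mm10 with the GENCODE M4 annotation, while no label or header names the quantifier, which is therefore not given in the sources used here. Per the labels, 10.0 ng of RNA longer than 200 nt entered each library. Symbols and coordinates came from GENCODE M21 on the same assembly and matched 42462 of 43346 Ensembl genes. Rows with numeric identifiers held 6 and 14 counts and stayed out, as did spike-ins.

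Levels are deposited TPM. Expected counts were rounded to set scaling factors and intervals. Factors came from TMM in edgeR 4.0.16 over genes with at least 10 summed counts, and ratios from scaled counts with a prior count of 0.5. Intervals at 95% are exact conditional binomial. The script for the ratios was checked on simulated counts with known folds, and the ratios themselves carry no test. Alternatives were DESeq2 1.42.0 size factors, upper quartile, total counts, ERCC counts, posterior means, FPKM order, minimum counts and leaving out a library. Named genes are all members, Shh, Ihh, Dhh and Hhip, and of each pathway list the highest, the lowest and any gene past 2-fold, plus the 2 highest markers of each list whose sum differed by over 1.5-fold. Genes past 1.5-fold in the lists, Mycn, the other ventral midbrain genes, Otx2, En1, Xist and Eif2s3y were named after their values were seen. The members and lists were chosen with earlier results of these data known. Protein sequences were not analysed here, and a few genes that these rules name are not reported here.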

Additional observations from a re-analysis of the deposited data

How the results depend on the processing

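The direction of each of the 9 member ratios was the same under all scalings, counts and prior counts tried. For Ptch1 the log2 ratio fell from 0.12 with TMM to 0.0125 with ERCC spike-in counts and 0.0026 with deposited TPM. The counting interval of Gli1 covered both directions. The number of members at least 1.5-fold higher in embryo 1 was 3 with TMM and 5 with total counts, 6 with ERCC spike-in counts and 6 with deposited TPM, because Boc, Gli3 and Smo lie next to that ratio. The share of all genes past 1.5-fold in embryo 1 was 13.2% in the TPM span of the members (a background chosen after seeing the data, as was the length span), 13.3% at a minimum of 10 counts and 20.01% with any count, and in embryo 2 it was 10.5% and 17.55% at these last settings. The order of levels changed for 2 members with posterior mean TPM, and for 2 to 3 members when 1 library was left out. At 5 TPM in place of 1 TPM, detected genes were 3 of the ligand list, 3 of the other receptors and 2 of the ventral midbrain genes. Low counts limit the ratios of Gli1, Shh, Dhh, Ihh and Nkx2-9. No paired analysis was possible because both libraries form 1 group.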
